A study of Mus musculus with 20 samples.

Results

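Integrins are the cell surface receptors for the extracellular matrix, and laminins and collagens are the main proteins of that matrix. Here their mRNA levels were described across the 5 groups of a mouse kidney ischemia study, over the 84 gene names on the array that begin with the symbol of an integrin subunit, a laminin chain or a collagen chain, out of 27827 gene names in all. The 84 names were read by 172 probes. Of these names, 7 match the naming rule without being subunits or chains themselves: Itgb1bp1, Itgb1bp2, Itgb1bp3, Itgb3bp, Itgb2l, Itgbl1 and Col4a3bp. Within these gene families a name was taken by its spelling alone.

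The study asked how ischemia-reperfusion injury (IRI) changes kidney gene expression, and how hemin or ischemic preconditioning (IPC) given beforehand modifies that change. All mice were male C57BL/6 of 8 to 12 weeks, and each group held 4 kidney samples, each hybridised to its own 1-colour Agilent whole mouse genome array. Control mice had neither surgery nor drug, so they were not sham-operated. IRI mice had both renal pedicles clamped for 45 minutes and were killed 6 hours after reperfusion. IRI+Hemin mice received hemin, an inducer of the heme-degrading enzyme Hmox1, at 25 mg/kg into the peritoneum 24 hours before the same operation. IPC+IRI mice had a clamping of 15 minutes 7 days before it, and Hemin mice received the drug and no surgery. Where operated mice are compared with Control or Hemin mice, surgery and ischemia cannot be told apart. What is called ischemia below covers both. The labels call the 4 samples of a group replicates without stating that each came from a separate mouse, so p-values measure the spread between these samples.

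An integrin is a pair of 1 alpha and 1 beta subunit, and the pair decides which ligand is bound: fibronectin, laminin, collagen, vitronectin or a counter-receptor on another cell. A laminin is a trimer of an alpha, a beta and a gamma chain, and together with the network of type IV collagen it makes up the basement membrane under tubules, glomerular capillaries and vessels. The fibrillar collagens fill the interstitium and accumulate in scarred kidney, and tubular cells that lose their polarity after ischemia are known to redistribute their integrins.

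Levels are given as log2 of the processed signal over the 75th percentile of the same array, so that 0 is that percentile and a difference of 1 is a doubling; the level of one gene cannot be set against that of another on this scale. The 75th percentile lay between 146.7 and 357.9 intensity units, and 57.4% to 67.4% of gene names were well above background on an array. The kidney label was checked against tubule and podocyte markers: all 8 proximal tubule markers, all 4 thick limb and distal tubule markers and all 5 podocyte markers were well above background on every array. The 4 arrays of a group shared 1 slide that held no other group, and in every comparison slide and group cannot be told apart. Control and IRI arrays were scanned on the same day, IRI+Hemin arrays on another, and IPC+IRI and Hemin arrays on the remaining one, so that IRI vs Control alone lies within 1 scan day, and in the other comparisons scan day and group cannot be told apart. No probe of the 84 names was saturated.

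After ischemia, integrin subunits and laminin chains were called higher more often than lower, and collagen chains were called both ways. In IRI vs Control, 68 of the 84 members were bright enough to test. Of these, 17 (25%) were higher and 15 (22.1%) were lower at an adjusted p below 0.05 by limma with Benjamini-Hochberg adjustment, beside 17% of all genes tested that were higher and 33.7% that were lower. Among the 21 integrin subunits tested, 6 were higher and 3 lower, among the 11 laminin chains 4 were higher and 1 lower, and among the 32 collagen chains 7 were higher and 8 lower. Changes of at least 2-fold were called for 6 members upward and 5 downward, beside 5.97% and 14.3% of all genes. The median log2 difference over the members was -0.15, close to the -0.174 over all genes. With normexp background correction in place of the processed signal the median over all genes moved to 0.022 and the split of called members to 13 higher and 1 lower.

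In hemin-treated kidneys the effect of ischemia was measured in separate mice. In IRI+Hemin vs Hemin, 15 of 71 members tested were higher and 16 were lower, beside 16.4% and 27.8% of all genes. Integrin subunits again were called higher more often than lower, 7 against 2 of 24, whereas 11 of 31 collagen chains were lower and 6 higher. Of these 7 integrin calls, only that of Itga6 was kept under every other setting and every left-out array. The Itgb8 rise of 0.84 was lost without normalization between arrays and with normexp, and was kept in 4 of 8 fits with 1 array left out. At least 2-fold, 5 were higher and 6 lower, beside 5.78% and 8.5% of all genes. The split was 4 higher and 10 lower without normalization between arrays, and 13 higher and 7 lower in the deposited log2 matrix. IRI vs Control and IRI+Hemin vs Hemin share no array. Of the members called higher, 11 were common to both, which is 64.7% of the 17 and 73.3% of the 15, among them Itga3, Itga5, Itga6, Itgav, Lama5, Col4a1, Col4a2, Col13a1, Col18a1 and Col27a1. Over all genes, 65.1% and 64.1% of those called higher were common to both. Of the members called lower, 7 were common, which is 46.7% of the 15 and 43.8% of the 16, beside 54.3% and 62.5% over all genes: Itga8, Col1a1, Col4a3, Col4a6, Col9a2, Itgb1bp1 and Itgb3bp. The shares of members thus lay near those of all genes for rises and below them for falls, a difference that was not tested. No member was called in opposite directions.

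Both pre-treatments were also set against IRI alone. In IPC+IRI vs IRI, 13 of 68 members were higher and 17 lower, beside 26% and 17.7% of all genes, and in IRI+Hemin vs IRI 12 of 70 were higher and 14 lower, beside 26.1% and 18%. At least 2-fold, 5 were higher and 7 lower in IPC+IRI vs IRI, beside 7.16% and 4.4% of all genes. In IRI+Hemin vs IRI, 3 were higher and 4 lower at that size, beside 7.43% and 5.03%. No laminin chain was higher in IPC+IRI than in IRI, while 4 of 10 were lower. The median over members was -0.12 and -0.14 in these comparisons, against 0.093 and 0.082 over all genes. Without normalization between arrays the splits were 16 higher and 3 lower in both, and with normexp they were 6 and 13 in IPC+IRI vs IRI and 7 and 15 in IRI+Hemin vs IRI.

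Against Control, IPC+IRI kidneys had 16 of 71 members higher and 14 lower, beside 23.1% and 32.6% of all genes. The higher count was 10 without Control replicate 4 or IPC+IRI replicate 4. At least 2-fold, 3 were higher and 9 lower, beside 7.96% and 14.1% of all genes. The split at any size was 19 and 5 without normalization, 9 and 5 with normexp, and 10 and 15 in the deposited matrix. Hemin without surgery was followed by 8 of 72 members higher and 13 lower than in Control, beside 18.4% and 17.5% of all genes. The lower count was 7 without Control replicate 1 or 3, and 8 without Control replicate 4 or Hemin replicate 1 or 3. At least 2-fold, 0 were higher and 1 (Itga5) was lower, beside 2.18% and 5.98% of all genes. Without normalization the split at any size became 27 higher and 0 lower, and the median over all genes rose from 0.057 to 0.622. The comparisons that use IRI or Control arrays share them, and their values are given side by side below.

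**Figure D1:**
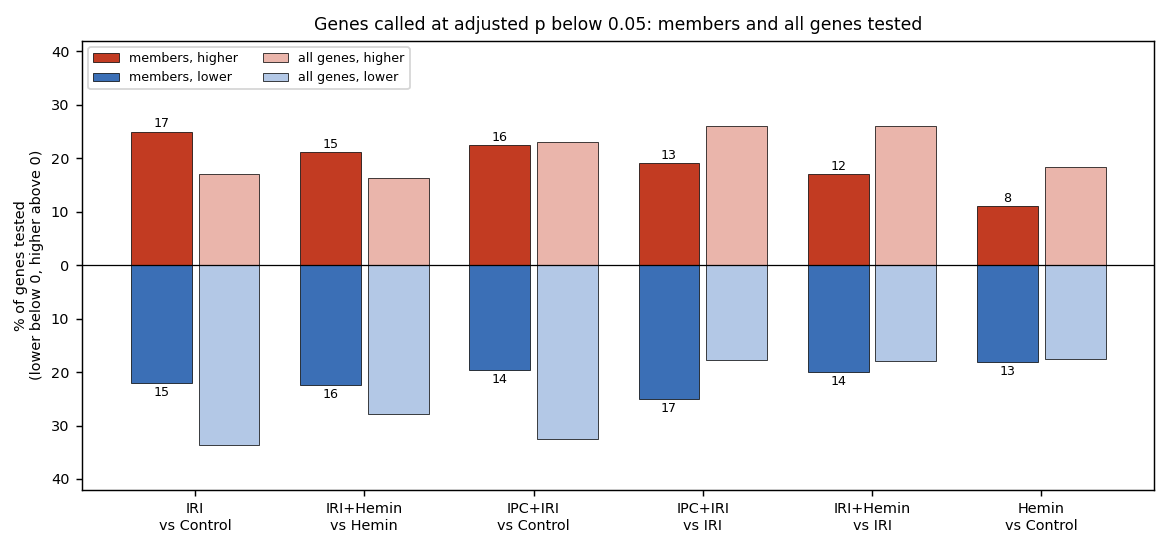
Bars give the percentage of genes tested that were called at an adjusted p below 0.05 in each of 6 comparisons, higher above the zero line and lower below it, for the integrin, laminin and collagen names (dark, with their number) and for all genes (pale). In IRI vs Control 25% of members against 17% of all genes were higher, and in Hemin vs Control 8 members were higher and 13 lower.

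Itga5 encodes the alpha subunit of the classical fibronectin receptor, and its probe lies at chr15:103175022-103175081 of the mm9 build. It read -2.68, -3.8, -2.14 and -2.32 in the Control arrays, and -0.47, -1.22, 0.08 and 0.09 in IRI. Every IRI array was above every other array of the study: the IRI+Hemin arrays read -2.57, -2.43, -2.75 and -3.33, the IPC+IRI arrays -3.8, -3.07, -2.42 and -2.86, and the Hemin arrays -4.14, -3.88, -4.08 and -3.83. The rise in IRI vs Control was 2.36 ± 0.356 (log2 difference ± SE; 5.12-fold, adjusted p = 3.69e-05). The differences from IRI were -2.66 ± 0.356 in IPC+IRI (adjusted p = 2.94e-05) and -2.39 ± 0.356 in IRI+Hemin (adjusted p = 6.58e-05). Hemin kidneys were lower than Control by -1.25 ± 0.356 (adjusted p = 0.0116), and from that lower start IRI+Hemin rose above Hemin by 1.21 ± 0.356 (adjusted p = 0.0107). Both of these last calls were lost without normalization between arrays, and the rise in IRI+Hemin vs Hemin also with normexp.

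Itga6 and Itga3 encode the alpha subunits of laminin receptors. Itga6 read 0.87, 1.72, 0.81 and 1.71 in Control and 1.38, 1.76, 1.39 and 1.33 in Hemin. All 12 arrays of operated mice lay above these: 2.54 to 2.79 in IRI, 2.57 to 2.94 in IRI+Hemin and 2.38 to 2.59 in IPC+IRI. The rise was 1.39 ± 0.182 in IRI vs Control (adjusted p = 8.68e-06), 1.32 ± 0.182 in IRI+Hemin vs Hemin (adjusted p = 2.44e-05) and 1.21 ± 0.182 in IPC+IRI vs Control (adjusted p = 3.24e-05). Itga6 was called neither in IPC+IRI vs IRI nor in IRI+Hemin vs IRI. Itga3 was higher in IRI than in Control by 0.85 ± 0.202 (adjusted p = 0.00201), with 0.09 to 1.26 in IRI against -0.66 to -0.08. In contrast to Itga6, it was lower in IPC+IRI than in IRI by -1.06 ± 0.202 (adjusted p = 0.000518), a call lost without normalization between arrays. Its 3 probes, all on NM_013565, disagreed: in IRI vs Control they differed by 1.01, 1.13 and -0.31, and in IPC+IRI vs IRI by -1.17, -1.41 and 0.09.

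Itgav encodes the alpha subunit that pairs with Itgb1, Itgb3, Itgb5, Itgb6 or Itgb8 and binds vitronectin, fibronectin or latent TGF-beta. It read -0.62, -1.01, -0.42 and -0.39 in Control, 0.03, 0.33, 0.37 and 0.2 in IRI, and -0.53, -0.96, -0.53 and -0.85 in IRI+Hemin. All 4 IRI arrays were above those of both groups. The difference was 0.84 ± 0.156 in IRI vs Control (adjusted p = 0.000253; not called in the deposited matrix) and -0.95 ± 0.156 in IRI+Hemin vs IRI (adjusted p = 0.000147; not called without normalization). Hemin arrays read -1.15, -1.31, -1.32 and -1.07, lower than Control by -0.6 ± 0.156 (adjusted p = 0.00648; not called without normalization).

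The beta partners of Itgav did not move together. Itgb8, whose pair with Itgav activates latent TGF-beta, read -1.83, -2.27, -1.97 and -1.77 in IRI, but -0.91, -0.59, -0.29 and -0.19 in IRI+Hemin and -1.03, -0.56, -0.28 and -0.73 in IPC+IRI. Both pre-treated groups lay wholly above IRI, by 1.46 ± 0.282 in IRI+Hemin (2.76-fold, adjusted p = 0.000546) and by 1.31 ± 0.282 in IPC+IRI (2.48-fold, adjusted p = 0.00131). The Control arrays read -2.03, -2.06 and -1.85 except replicate 2 at -0.53, and Hemin arrays -1.02, -1.08, -1.66 and -1.57. Itgb5, the vitronectin receptor subunit, read 3.82 to 4.01 in IRI and 3.97 to 4.36 in Control, against 4.49 to 4.93 in IPC+IRI, 4.33 to 4.67 in IRI+Hemin and 4.57 to 4.67 in Hemin. It was higher by 0.63 ± 0.114 in IRI+Hemin vs IRI (adjusted p = 0.000345) and 0.76 ± 0.114 in IPC+IRI vs IRI (adjusted p = 7.52e-05). The 3 groups with high Itgb5 are also those not scanned with Control and IRI, and scan day and group cannot be told apart here. Itgb6, the epithelial partner, ranged from 1.19 to 2.41 over all 20 arrays and was called in no comparison.

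**Figure D2:**
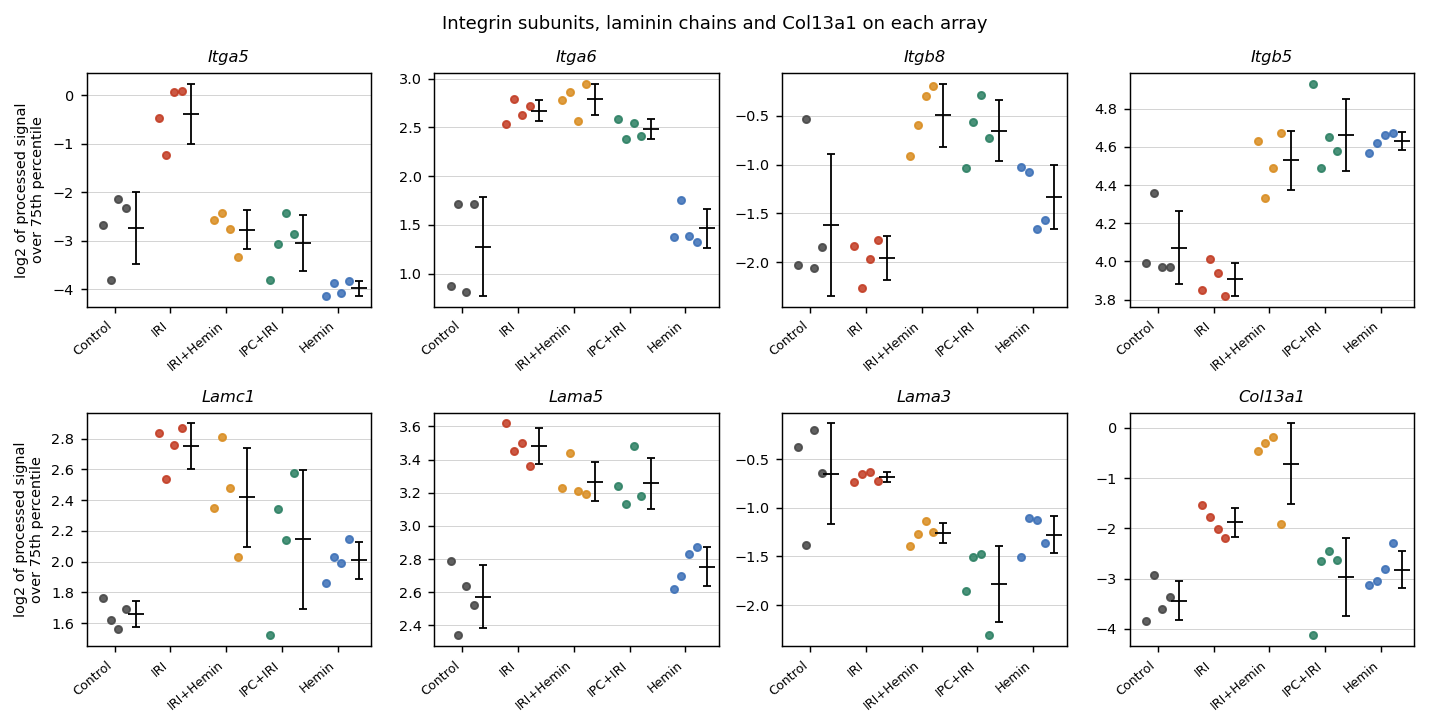
Level of 8 members on each array (log2 of the processed signal over the array's 75th percentile; each panel has its own axis), by group, with the mean and SD of 4 arrays in black. Itga5 is high in IRI alone, Itga6 and Lama5 are higher than in Control and Hemin in all 3 operated groups, and Itgb8 and Itgb5 sit higher in IRI+Hemin and IPC+IRI than in IRI.

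Itgb1, the beta subunit shared by most matrix receptors, moved little: 0.51 to 1.11 in IRI, -0.01 to 0.55 in Control and 0.31 to 0.41 in IPC+IRI. The difference of 0.38 ± 0.138 in IRI vs Control (adjusted p = 0.0279) was not called in the deposited matrix, with quantile normalization, with normexp, without normalization, with the compared arrays alone, or without Control replicate 1 or 2 or IRI replicate 3 or 4. Itga8, the nephronectin receptor subunit of mesangial and smooth muscle cells, was lower after ischemia in both series of mice. It read -0.5, -0.25, -0.38 and -0.21 in Control against -1.21, -0.88, -0.73 and -0.87 in IRI, and -0.34, -0.35, -0.32 and -0.21 in Hemin against -1.52, -1.09, -1.64 and -1.24 in IRI+Hemin. Neither pair of groups overlapped. The difference was -0.59 ± 0.144 (adjusted p = 0.00246) in IRI vs Control and -1.07 ± 0.144 (adjusted p = 1.98e-05) in IRI+Hemin vs Hemin, and the first of these was lost with normexp, without normalization and in the deposited matrix.

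Leukocyte integrins were described beside the leukocyte markers, since in RNA of a whole kidney more cells of a type and more RNA per cell cannot be told apart. Over 11 leukocyte markers the summed level, in units of the 75th percentile, was 2.66 to 2.8 in Control and 2.56 to 3.76 in Hemin, against 8.81 to 14.8 in IRI, 6.17 to 16.8 in IRI+Hemin and 9.08 to 26.1 in IPC+IRI, with 8 or 9 of the 11 well above background on all 4 arrays of a group. Itgam, the alpha subunit of the complement receptor of neutrophils and macrophages, was well above background on 2 of 4 arrays in Control and in IRI. It read -5.02, -2.26, -3.18 and -3.2 in IPC+IRI, -4.06, -2.5, -3.78 and -4.27 in IRI+Hemin and -4.09, -5.81, -5.79 and -4.84 in Control. The rise in IPC+IRI vs Control was 1.72 ± 0.518 (adjusted p = 0.00904; not called with normexp), although IPC+IRI replicate 1 lay within the Control range. Itgb2, the beta subunit shared by leukocyte integrins, read -1.59 to -1.27 in IRI and -1.75 to -1.61 in Control and was not called there. It read -2.82 to -2.26 in Hemin, lower than Control by -0.75 ± 0.269 (adjusted p = 0.0373), and -2.04 to -0.86 in IRI+Hemin, higher than Hemin by 0.85 ± 0.269 (adjusted p = 0.0168). Both calls were lost without normalization and with normexp. The first was lost when any array of Control, or Hemin replicate 1, 3 or 4, was left out (-0.8 to -0.62), and the second without IRI+Hemin replicate 2 (0.61) or Hemin replicate 1 (0.72). Itgal, the alpha subunit of the lymphocyte integrin LFA-1, did not follow the leukocyte sum: at -4.24 to -3.33 in IRI+Hemin it was lower than in IRI by -0.91 ± 0.219 (adjusted p = 0.00299), and at -3.66 to -3.29 in Hemin it was lower than in Control by -0.97 ± 0.219 (adjusted p = 0.0027). Without normalization between arrays neither fall was called. The part of leukocyte number in these values was not tested.

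Itga2b, the alpha subunit of the platelet fibrinogen receptor, was higher in IPC+IRI than in Control by 0.96 ± 0.192 (adjusted p = 0.000428) and higher in Hemin than in Control by 0.85 ± 0.192 (adjusted p = 0.0026), both not called with normexp. Its levels were -3.38 to -2.93 in Control, -3.28 to -2.29 in IRI, -2.62 to -1.98 in IRI+Hemin, -2.41 to -1.93 in IPC+IRI and -2.47 to -2.16 in Hemin. The groups with the higher Itga2b means were those not scanned with Control and IRI, and scan day and group cannot be told apart here. The summed level of 5 platelet markers was 0.277 to 0.735 in Control, 0.565 to 1.14 in IPC+IRI and 0.426 to 0.593 in Hemin, with 2 or 3 of the 5 well above background, and its part in the difference was not tested. Itga10, a collagen receptor subunit, was not well above background on any IRI array and was at least 1.36-fold higher in IPC+IRI and at least 1.3-fold higher in IRI+Hemin. For such a gene the fold is a lower bound, taken against the lowest signal that still passed as well above background.

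Lama3 and Lamb3 encode an alpha and a beta chain of an epithelial laminin. Lamb3 rose in IRI, from -4.18, -3.71, -4.5 and -4.24 in Control, where 2 of 4 arrays were well above background, to -2.5, -2.91, -2.27 and -0.45, a difference of 2.12 ± 0.582 (adjusted p = 0.00565). Its Hemin arrays were spread from -3.68 to -1.6 and its IRI+Hemin arrays read -3.19 to -2.5, a difference that was not called. Lama3 was not called in IRI vs Control: it read -0.38, -1.38, -0.2 and -0.64 in Control and -0.74, -0.65, -0.63 and -0.72 in IRI. It was lowest in IPC+IRI, at -1.85, -1.51, -1.47 and -2.31, with -1.14 ± 0.209 against Control (adjusted p = 0.000198) and -1.1 ± 0.209 against IRI (adjusted p = 0.000498). Both calls were lost without normalization, and the second in the deposited matrix too. The differences came from 1 of its 2 probes, with -1.36 and -1.35, while the other gave -0.2 and -0.09.

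Lama5 and Lamc1 encode chains of the laminin of mature tubular and glomerular basement membranes. Lama5 read 2.79, 2.34, 2.64 and 2.52 in Control and 3.62, 3.45, 3.5 and 3.36 in IRI, a difference of 0.91 ± 0.111 (adjusted p = 4.57e-06). In IPC+IRI it read 3.13 to 3.48, 0.69 ± 0.111 above Control (adjusted p = 6.37e-05), and in IRI+Hemin 3.19 to 3.44, 0.51 ± 0.111 above Hemin (adjusted p = 0.00138; not called with normexp or without normalization). Lamc1 read 1.56 to 1.76 in Control and 2.54 to 2.87 in IRI, a difference of 1.09 ± 0.185 (adjusted p = 0.000111). In IRI+Hemin vs Hemin its difference of 0.41 ± 0.185 was not called (adjusted p = 0.0807). The value of 0.48 ± 0.185 in IPC+IRI vs Control (adjusted p = 0.0334) was no longer called without Control replicate 2, 3 or 4 or without IPC+IRI replicate 2, 3 or 4, with 0.34 to 0.69 over all single arrays left out, nor in the deposited matrix, with normexp or quantile normalization or with the compared arrays alone. Lamb2, their usual beta partner in the glomerulus, behaved otherwise: it read 0.42 to 1.11 in Control and 0.57 to 1.3 in IRI, and 1.38 to 1.58 in IRI+Hemin, where it was 0.63 ± 0.16 above IRI (adjusted p = 0.00447). Hemin arrays were also above Control, at 1.11 to 1.51, by 0.6 ± 0.16 (adjusted p = 0.00767), although Control replicate 2 reached 1.11 as well. In IPC+IRI Lamb2 read 0.97 to 1.27. The groups with the higher Lamb2 means were those not scanned with Control and IRI, and scan day and group cannot be told apart here. Lamb1-1, the beta chain of most other laminins, was lower in IRI+Hemin than in Hemin by -0.51 ± 0.122 (adjusted p = 0.00272; not called without normalization), with 2.14 to 2.64 against 2.69 to 3. Lama4, an endothelial laminin chain, was lowest in IPC+IRI at -4.67 to -3.01, against -2.72 to -2.18 in Control, -1.34 ± 0.296 (adjusted p = 0.00101; not called without normalization). The summed level of 6 endothelial markers was 7.93 to 22.3 in IPC+IRI and 11.6 to 14.6 in Control, and of these 6 markers none was higher and 2, Tek and Tie1, were lower in IPC+IRI vs Control. Tek, an angiopoietin receptor, read -2.99 to -1.86 in IPC+IRI and -1.21 to -0.55 in Control, and the part of the endothelial markers in the Lama4 value was not tested.

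The 6 type IV collagen chains did not move together. Col4a1 and Col4a2, the chains of the network in all basement membranes, were higher in IRI. Col4a1 read 2.14, 1.78, 2.08 and 2.49 in Control, 3.17, 2.72, 3.09 and 3.34 in IRI, and 1.82, 2.1, 2.55 and 2.18 in IPC+IRI. The IRI arrays were above both groups, by 0.96 ± 0.196 over Control (adjusted p = 0.000594), and IPC+IRI was lower than IRI by -0.92 ± 0.196 (adjusted p = 0.00124; not called without normalization). Col4a2 read 1.51 to 2.09 in Control, 2.08 to 2.78 in IRI and 1.49 to 2.14 in IPC+IRI, with differences of 0.7 ± 0.18 in IRI vs Control (adjusted p = 0.00357) and -0.68 ± 0.18 in IPC+IRI vs IRI (adjusted p = 0.00564); neither was called without normalization, and the second not with normexp. In hemin-treated mice the rises of 0.58 ± 0.196 for Col4a1 (adjusted p = 0.0237) and 0.47 ± 0.18 for Col4a2 (adjusted p = 0.0439) were each lost in the deposited matrix, without normalization and with the brightest probe. That of Col4a1 was also lost with normexp, and that of Col4a2 with quantile normalization, without the filter and with the replicate block. Each was lost when any of several single arrays was left out, with lowest values of 0.48 for Col4a1 without IRI+Hemin replicate 2 and 0.38 for Col4a2 without Hemin replicate 1.

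Col4a3, Col4a4 and Col4a5 form the network of the mature glomerular basement membrane that is defective in Alport syndrome. Col4a3 read 1.27, 0.86, 1.31 and 1.64 in Control, 0.8, 0.69, 0.65 and 0.83 in IRI, 0.05, 0.29, -0.09 and -0.3 in IPC+IRI, 0.27, -0.01, 0.07 and -0.06 in IRI+Hemin and 0.77, 0.91, 0.56 and 0.89 in Hemin. Control arrays were thus the highest, although Control replicate 2 was within the Hemin range, and the pre-treated operated mice were the lowest with no overlap with IRI. The differences were -0.52 ± 0.15 in IRI vs Control (adjusted p = 0.00742), -0.71 ± 0.15 in IRI+Hemin vs Hemin (adjusted p = 0.00104), -1.28 ± 0.15 in IPC+IRI vs Control (adjusted p = 2.71e-06) and -0.76 ± 0.15 in IPC+IRI vs IRI (adjusted p = 0.00067). Of these 4, only IPC+IRI vs Control was called without normalization. Col4a5 read -0.95, -0.96, -1.08 and -1.23 in IRI, -2.46, -2.9, -2.82 and -2.6 in IRI+Hemin and -1.76, -1.31, -2.43 and -2.19 in IPC+IRI. IRI+Hemin was lower by -1.64 ± 0.249 against IRI (3.12-fold, adjusted p = 7.65e-05) and by -1.47 ± 0.249 against Hemin (adjusted p = 0.000168), and IPC+IRI by -1.45 ± 0.249 against Control (adjusted p = 0.00011).

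Col4a4 read 3.33 to 3.59 in Hemin and 2.54 to 2.86 in IRI+Hemin, a difference of -0.74 ± 0.159 (adjusted p = 0.0012) that was not called with its brightest probe. Col4a6, the chain of smooth muscle and distal basement membranes, was lower by -0.72 ± 0.247 in IRI vs Control (adjusted p = 0.0221) and -0.73 ± 0.247 in IRI+Hemin vs Hemin (adjusted p = 0.0237); both were lost in the deposited matrix, with normexp and without normalization. The first was also lost with quantile normalization and without Control replicate 1 or 2 or IRI replicate 3 (-0.67 to -0.65), and the second with the brightest probe and without IRI+Hemin replicate 2 or 3 or Hemin replicate 3 or 4 (-0.69 to -0.56). The 2 falls came from different probes on NM_053185: the probe at chrX:137601433-137601491 (mm9) gave -1.02 and then -0.15, and that at chrX:137599990-137600049 gave -0.19 and then -1.36. The summed level of 5 podocyte markers was 3.55 to 5.7 in Control, 3.86 to 4.83 in Hemin, 3.06 to 3.85 in IRI, 2.89 to 3.74 in IPC+IRI and 3.3 to 4.21 in IRI+Hemin. The range lay lower in operated mice, with overlap, and its part in the Col4a3 and Col4a5 values was not tested. In the RefSeq annotation of GRCm38.p6 the 3 pairs are neighbours: the annotated spans of Col4a1 and Col4a2 on chromosome 8 overlap by 85 bases, those of Col4a3 and Col4a4 on chromosome 1 overlap by 114 bases, and Col4a5 and Col4a6 lie 1274 bases apart on chromosome X.

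**Figure D3:**
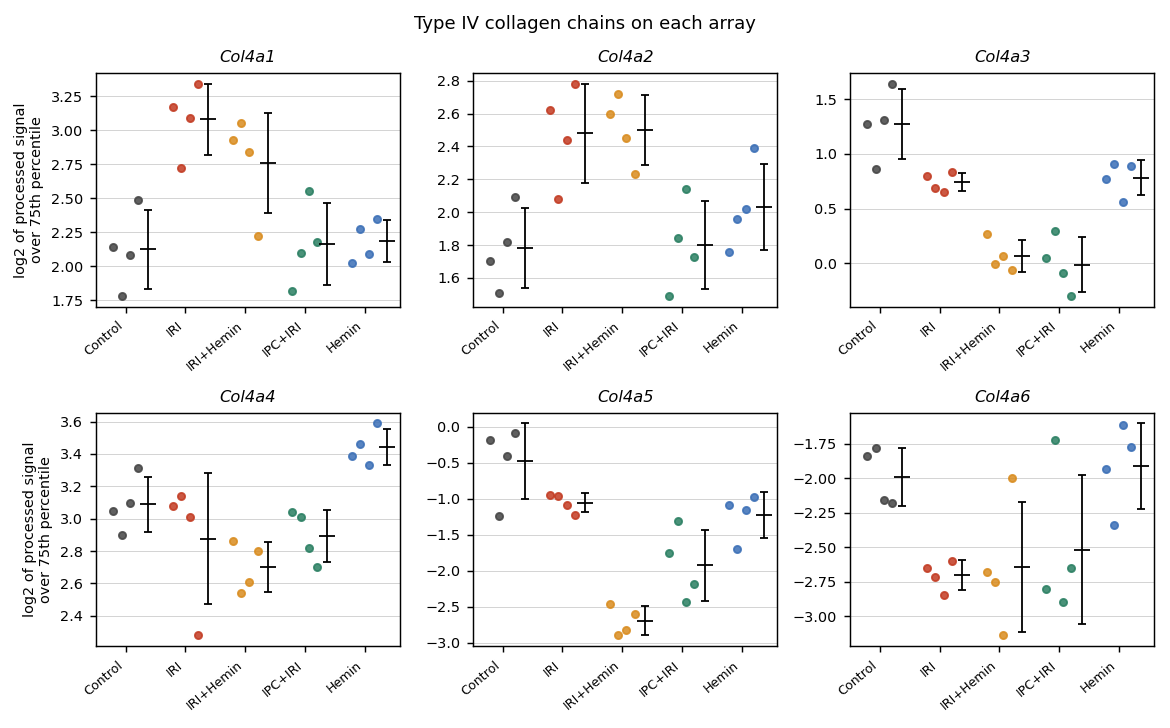
Level of the 6 type IV collagen chains on each array (log2 of the processed signal over the array's 75th percentile; each panel has its own axis), by group, with the mean and SD of 4 arrays in black. Col4a1 and Col4a2 are highest in IRI and IRI+Hemin, and Col4a3 and Col4a5 are lowest in IRI+Hemin and IPC+IRI.

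Among the other collagens, Col13a1, a transmembrane collagen of cell-matrix adhesions, had the largest called rise in both comparisons of ischemia. It read -3.85, -2.93, -3.61 and -3.36 in Control, -1.53, -1.77, -2.01 and -2.2 in IRI, -3.13, -3.04, -2.81 and -2.3 in Hemin and -0.46, -0.3, -0.18 and -1.91 in IRI+Hemin. The rise was 2.11 ± 0.376 in IRI+Hemin vs Hemin (4.32-fold, adjusted p = 0.000265) and 1.56 ± 0.376 in IRI vs Control (adjusted p = 0.00223; not called in the deposited matrix). Neither pair of groups overlapped. IPC+IRI read -4.13, -2.65, -2.45 and -2.64, below IRI by -1.09 ± 0.376 (adjusted p = 0.0259), a call lost without IPC+IRI replicate 1 (-0.71), IRI replicate 1 (-0.97) or IRI replicate 2 (-1.06), in the deposited matrix and without normalization. Col27a1, a fibrillar-type collagen, read -1.22 to -0.68 in Hemin and 0.03 to 0.52 in IRI+Hemin, 1.31 ± 0.196 higher (adjusted p = 5.39e-05). It was lower in IPC+IRI, at -1.21 to -0.76, than in IRI, at -0.03 to 0.28, by -1.16 ± 0.196 (adjusted p = 0.000202; not called in the deposited matrix).

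Col18a1, the basement membrane collagen from which endostatin is cleaved, was higher than its comparison group in all 6 comparisons. It read 3 to 3.51 in Control, 3.62 to 3.86 in Hemin, 3.54 to 3.63 in IRI, 3.76 to 4.56 in IPC+IRI and 4.19 to 4.56 in IRI+Hemin. The differences were 0.91 ± 0.149 in IPC+IRI vs Control (adjusted p = 7.04e-05), 0.71 ± 0.149 in IRI+Hemin vs IRI (adjusted p = 0.00109) and 0.61 ± 0.149 in Hemin vs Control (adjusted p = 0.00459). In IRI vs Control it was 0.42 ± 0.149 (adjusted p = 0.0253), lost without Control replicate 1, 3 or 4 or IRI replicate 1 and under 4 of the 8 other settings. Col9a2, a collagen carried on the surface of fibrils, was lower in both comparisons of ischemia, from -2.03 to -1.86 in Control to -3.23 to -2.82 in IRI, -1.03 ± 0.156 (adjusted p = 3.89e-05), and from -2.98 to -2.44 in Hemin to -3.97 to -3.63 in IRI+Hemin, -1.1 ± 0.156 (adjusted p = 3.32e-05). Neither fall was called with normexp.

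The interstitial collagens Col1a1, Col1a2 and Col3a1 were uneven within IPC+IRI. Col1a1 read 0.34, -0.49, -0.53 and -0.29 in Control, -1.25, -1.79, -1.72 and -1.28 in IRI, -1.83, -1.52, -2.14 and -1.1 in IRI+Hemin and 0.61, 0.39, 0.4 and 0.46 in Hemin. All 8 arrays of IRI and IRI+Hemin lay below all 8 of Control and Hemin. The fall was -1.27 ± 0.382 in IRI vs Control (adjusted p = 0.0102; not called with normexp) and -2.11 ± 0.382 in IRI+Hemin vs Hemin (4.33-fold, adjusted p = 0.000301). In IPC+IRI, replicates 2 and 3 read 1.08 and 0.93 and replicates 1 and 4 read -0.96 and -0.88. The difference of 1.56 ± 0.382 from IRI (adjusted p = 0.00341) thus averages 2 arrays above every Control array and 2 below. It also averages probes that disagreed, although both were designed on NM_007742: the probe at chr11:94813075-94813134 (mm9) was higher by 1.86 in IPC+IRI than in IRI, and that at chr11:94812052-94812111 lower by -0.54. Both probes were lower in IRI vs Control, by -1.34 and -0.92, and in IRI+Hemin vs Hemin, by -2.19 and -1.24. Col1a2 split in the same way, with 2.63 and 2.7 in replicates 2 and 3 against 0.48 and 1.06 in replicates 1 and 4, and its difference of 1.2 ± 0.364 from IRI (adjusted p = 0.0133) was not called without IPC+IRI replicate 2 (0.89) or 3 (0.87), in the deposited matrix or with the compared arrays alone. Col3a1 read 1.24 and 0.63 in replicates 2 and 3 against -1.85 and -0.51, and was lower in IRI+Hemin than in Hemin by -1.53 ± 0.446 (adjusted p = 0.0104; not called in the deposited matrix). The summed level of 6 fibroblast, pericyte and smooth muscle markers was 6.76 to 15.2 in IPC+IRI, 8.09 to 10.4 in Control, 8.71 to 11.3 in Hemin, 8.73 to 13.4 in IRI and 10.7 to 18.6 in IRI+Hemin. Its part in the Col1a1 values was not tested.

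**Figure D4:**
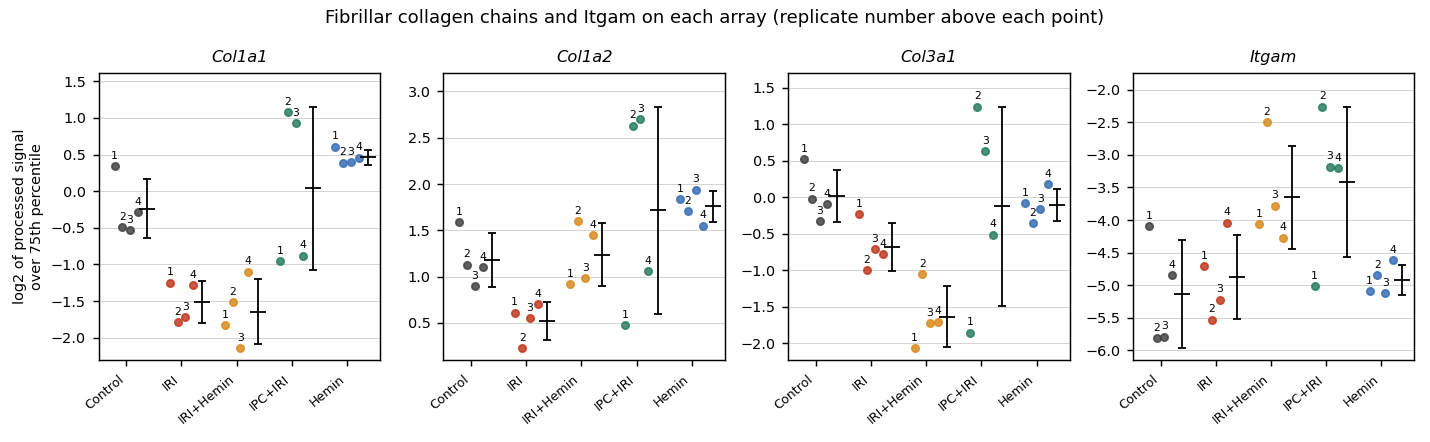
Level of Col1a1, Col1a2, Col3a1 and Itgam on each array (log2 of the processed signal over the array's 75th percentile; each panel has its own axis), with the replicate number above each point and the mean and SD of 4 arrays in black. In IPC+IRI replicates 2 and 3 read higher than replicates 1 and 4 for the 3 collagens, at 1.08 and 0.93 against -0.96 and -0.88 for Col1a1.

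Col2a1 and Col11a2, cartilage collagens measured at low level here, were lower in IRI than in Control by -1.15 ± 0.335 (adjusted p = 0.00859) and -1 ± 0.294 (adjusted p = 0.00896); neither was called with normexp, and the second not with the brightest probe or quantile normalization. Col12a1, a fibril-associated collagen, was lower in IPC+IRI, at -4.41 to -3.04, than in IRI, at -2.62 to -1.8, by -1.39 ± 0.28 (adjusted p = 0.000782). Col15a1, a collagen that links basement membrane to interstitium, was lower in IRI+Hemin than in IRI by -1.06 ± 0.277 (adjusted p = 0.0051; not called in the deposited matrix or without normalization). Col7a1, the anchoring fibril collagen, was higher in Hemin than in Control by 0.8 ± 0.171 (adjusted p = 0.00186), and Col8a1, a vessel wall collagen, was higher in IRI+Hemin than in Hemin by 1.11 ± 0.273 (adjusted p = 0.00341). Of the names that only match by spelling, Itgb3bp, a centromere protein, was lower in IRI, at -2.45 to -2.19, than in the other 4 groups, whose lowest array read -1.87. It was higher by 0.86 ± 0.106 in IPC+IRI (adjusted p = 1.48e-05) and 0.78 ± 0.106 in IRI+Hemin (adjusted p = 3.04e-05), and neither was called with normexp or in the deposited matrix. Col4a3bp, a ceramide transfer protein, read 0.05 to 0.83 in Control, 0.79 to 0.89 in Hemin and 0.51 to 0.75 in IPC+IRI. Its means were higher in the groups not scanned with Control and IRI, and scan day and group cannot be told apart here. It read 0.06 to 0.08 in IRI and 0.92 to 1.21 in IRI+Hemin, 0.94 ± 0.136 higher (adjusted p = 4.85e-05). Among its probes above background on all 20 arrays, that on AK020301 was higher by 1.05, whereas those on NM_023420 and AK030305 were lower, by -0.55 and -0.36. Itgb1bp3, a nicotinamide riboside kinase of muscle, was above background on 3 Control arrays and on no IRI array, at least 1.81-fold lower in IRI.

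Several members were not measurable. Itga2, Itgb2l, Col6a3 and Col28a1 were well above background on none of the 20 arrays, which gives no more than an upper bound on their level. Col8a2, Col9a1, Col9a3, Col10a1, Col17a1, Col24a1, Col29a1 and Itgbl1 were well above background on 2 to 5 arrays, never on 3 of a group, and these 12 members were tested in no comparison.

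Some members were read by probes that disagreed, which the mean over probes hides. For Itgb3, the partner of Itgav in vitronectin binding, the probe at chr11:104531672-104531731 (mm9, designed on NM_016780) had group means of -2.1 in Control, -1.57 in Hemin, -0.23 in IRI, -0.58 in IPC+IRI and -0.07 in IRI+Hemin. The probe at chr11:104528490-104528560, designed on AF026509, read 0.06, -0.94, 0.03, -0.94 and -1.16 in the same order. The first was thus higher in all 3 operated groups and the second was not. Averaged over both, Itgb3 was 0.74 ± 0.25 higher in IRI+Hemin than in Hemin (adjusted p = 0.0239), and with the brightest probe alone the value turned to -0.22. The call was also lost without IRI+Hemin replicate 1, 2 or 3 or Hemin replicate 1 or 2, with values of 0.59 to 0.71, and without normalization. For Itgav, 2 probes designed on the transcripts AK080357 and AK011583 were well above background on no array of Control, IRI or Hemin, but on 4 and 4 arrays of IRI+Hemin and on 3 and 4 of IPC+IRI. The Itgb8 differences came from its probe on AK029281, with means of -0.66 in Control, -0.12 in Hemin, -1.18 in IRI, 0.66 in IPC+IRI and 0.88 in IRI+Hemin, while the probe on AK140969 stayed between -2.02 and -1.66. An Itga6 probe on AK045391 read -2.82 in Control, -2.26 in Hemin, -1.24 in IRI, 0.15 in IPC+IRI and -0.09 in IRI+Hemin, and the probe on NM_008397 read 1.53, 1.41, 2.95, 2.33 and 2.59. For Col4a4 the probe on AK053338 averaged 2.78 in Control and 1.97 in IRI while that on NM_007735 averaged 3.31 and 3.43. The probes were designed on different transcript records, and which transcript forms they read was not tested.

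**Figure D5:**
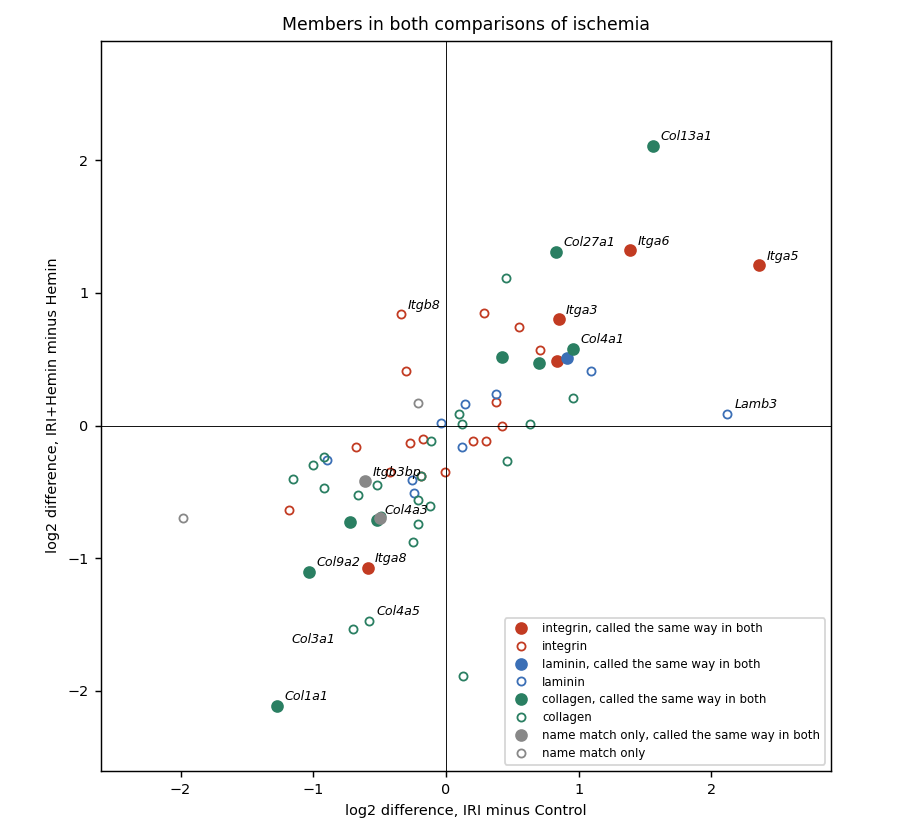
Each point is 1 member, for 66 of the 67 tested in both comparisons of ischemia, with the log2 difference in IRI vs Control on the horizontal axis and in IRI+Hemin vs Hemin on the vertical axis; filled points were called in the same direction in both. Col13a1, Itga5, Itga6 and Col27a1 lie at the upper right and Col1a1 and Col9a2 at the lower left, while Lamb3 lies at 2.12 on the horizontal axis near zero on the vertical one, and Itgb8 lies at 0.84 on the vertical axis, left of zero.

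The 2 effects of ischemia were compared directly by an interaction term, (IRI+Hemin minus Hemin) minus (IRI minus Control). No member of the 72 tested passed an adjusted p of 0.05 in limma, beside 5.83% of all genes higher and 1.95% lower (4.28% and 0.845% at 2-fold or more), and 17 members, or 23.6%, had an unadjusted p below 0.05, beside 22.3% of all genes. By other settings, 2 were higher in the deposited matrix, 2 with the brightest probe and 1 with the compared arrays alone, and 1 was lower with quantile normalization and 1 with the compared arrays alone. The interaction was 1.18 for Itgb8 (adjusted p = 0.0798), -1.14 for Itga5 (adjusted p = 0.185), -2.03 for Lamb3 (adjusted p = 0.148) and -0.89 for Col4a5 (adjusted p = 0.138). For these 4, a difference in the effect of ischemia between hemin-treated and untreated mice was therefore not detected at this number of arrays.

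Sequence before the start of 5 members called in the same direction in both comparisons of ischemia is printed here, to set the risers beside the fallers. They are the 3 largest rises and the only 2 falls whose promoter window in the RefSeq table of GRCm38.p6 holds 150 bases before the outermost annotated start without touching another gene. Each line runs 5′ to 3′ on the strand of the gene and ends at the base before the start. Capitals mark matches, on either strand, to the GC box (GGGCGG), the sequence known as the CCAAT box, the letters of a TATA box (TATAAA) or the motif of the factor AP-1 (TGANTCA). The positions are chr15:103366792-103366941 (minus strand) for Itga5, chr10:61979207-61979356 (minus) for Col13a1, chr10:77166531-77166680 (minus) for Col18a1, chr4:121039416-121039565 (plus) for Col9a2 and chrX:141474096-141474245 (minus) for Col4a6.
Itga5: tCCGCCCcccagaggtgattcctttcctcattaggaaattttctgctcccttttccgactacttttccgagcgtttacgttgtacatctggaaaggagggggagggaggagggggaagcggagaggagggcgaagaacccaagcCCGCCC
Col13a1: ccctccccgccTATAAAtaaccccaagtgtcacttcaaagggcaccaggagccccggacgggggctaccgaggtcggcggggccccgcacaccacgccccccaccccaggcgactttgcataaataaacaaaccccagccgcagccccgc
Col18a1: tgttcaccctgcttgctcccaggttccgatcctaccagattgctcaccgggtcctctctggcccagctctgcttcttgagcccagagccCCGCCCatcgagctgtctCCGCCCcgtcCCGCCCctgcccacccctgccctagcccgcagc
Col9a2: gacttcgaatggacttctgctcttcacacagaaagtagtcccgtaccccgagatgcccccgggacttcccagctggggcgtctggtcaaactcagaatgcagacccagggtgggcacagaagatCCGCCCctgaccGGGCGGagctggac
Col4a6: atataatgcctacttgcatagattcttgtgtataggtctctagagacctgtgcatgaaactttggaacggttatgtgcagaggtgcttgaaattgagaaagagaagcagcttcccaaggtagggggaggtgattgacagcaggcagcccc

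The GC box GGGCGG occurred 2 times before Itga5, 3 times before Col18a1 and 2 times before Col9a2, so that it was present before 2 risers and 1 faller, and TATAAA occurred 139 to 134 bases before the start of Col13a1. None of the 4 motifs was found before Col4a6, whose 2 falls were read by different probes. In the 150 bases before the start, GGGCGG was present in 28.6% of all 32851 windows of the table and in 39.7% of the 68 windows of members, CCAAT in 24.5% and 14.7%, TATAAA in 7.57% and 7.35%, and the AP-1 motif in 4.24% and 2.94%. A window was found for 62 of the 84 members, and these matches are descriptions of the letters.

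Genes for the proteins that link integrins to the cytoskeleton were called higher with ischemia more often than lower. In a list of 22 genes of integrin activation and focal adhesion, 11 were higher and 2 lower in IRI vs Control, beside 17% and 33.7% of all genes, with a median log2 difference of 0.37 against -0.174 over all genes. In IRI+Hemin vs Hemin 11 were higher and 2 lower, beside 16.4% and 27.8%, with a median of 0.45 against -0.151. In the deposited matrix the first of these counts was 6 higher and 1 lower. The lower count was also 1 without Control replicate 1, 3 or 4 or IRI replicate 1, 3 or 4 in the first comparison, and without IRI+Hemin replicate 2 or Hemin replicate 3 in the second. Vcl, the focal adhesion protein vinculin, read -0.44 to 0.63 in Control and 1.33 to 1.8 in IRI, 1.41 ± 0.183 higher (adjusted p = 7.97e-06), and was 1.3 ± 0.183 higher in IRI+Hemin than in Hemin (adjusted p = 3e-05). In IPC+IRI vs IRI the same list had 2 genes higher and 9 lower, beside 26% and 17.7% of all genes, with a median of -0.36 against 0.093, and 4 were lower without normalization. The higher count was 1 without IRI replicate 2 or IPC+IRI replicate 1. Of 6 endothelial markers none was higher and 4 (Cdh5, Pecam1, Tie1 and Tek) were lower there, with a median of -0.88, and their part in the falls of this list or of Col4a1 and Col4a2 from IRI was not tested. Actn1, the actin cross-linker alpha-actinin, was lower there by -1.76 ± 0.201 (adjusted p = 9.52e-06), while Lims1, the adapter PINCH, was higher by 1.52 ± 0.303 (adjusted p = 0.000743). In IRI+Hemin vs IRI, 4 were higher and 8 lower, beside 26.1% and 18% of all genes, and without normalization between arrays 7 were higher and 0 lower. In Hemin vs Control 1 was higher and 5 lower, beside 18.4% and 17.5%, with 7 and 0 without normalization and 2 higher without Control replicate 2 or Hemin replicate 4. In IPC+IRI vs Control 4 were higher and 7 lower, beside 23.1% and 32.6%.

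Of 17 other matrix ligands, 3 were higher and 2 lower in IRI vs Control, beside 17% and 33.7% of all genes. The 2 lower were 1 without Control replicate 3 or 4 or IRI replicate 1, 2 or 3. In IRI+Hemin vs Hemin 2 of them were higher and 5 lower, beside 16.4% and 27.8%. Tnc, the injury-induced matrix protein tenascin C, read -4.2 to -3.29 in Control and -2.31 to -0.18 in IRI, 2.55 ± 0.459 higher (adjusted p = 0.0002), and was lower in IRI+Hemin than in IRI by -2.09 ± 0.459 (adjusted p = 0.00149). Thbs1, thrombospondin, was lower in IPC+IRI than in IRI by -2.52 ± 0.288 (adjusted p = 9.64e-06), with -2.31 to -0.74 against 0.52 to 1.22. Agrn, the basement membrane proteoglycan agrin, was higher in Hemin than in Control by 1.18 ± 0.152 (adjusted p = 7.56e-05), with 4.37 to 4.66 against 3.09 to 3.63. It was also higher than IRI in both pre-treated groups, by 0.99 ± 0.152 in IPC+IRI (adjusted p = 8.94e-05) and 0.89 ± 0.152 in IRI+Hemin (adjusted p = 0.000219). Agrn read 3.84 to 4.34 in IPC+IRI, 3.71 to 4.37 in IRI+Hemin and 2.88 to 3.21 in IRI. As for Itgb5, the groups with high Agrn are those not scanned with Control and IRI, and scan day and group cannot be told apart here.

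Matrix receptors other than integrins numbered 12, of which ischemia raised 4 and lowered 1 in IRI vs Control, beside 17% and 33.7% of all genes, and raised 4 and lowered 3 in hemin-treated mice, beside 16.4% and 27.8%. Cd44, the hyaluronan receptor, rose in both, by 2.11 ± 0.301 (adjusted p = 2.07e-05) and 1.57 ± 0.301 (adjusted p = 0.000504). Dag1, the laminin receptor dystroglycan, was higher in IPC+IRI than in IRI by 1.35 ± 0.199 (adjusted p = 6.32e-05) and in IRI+Hemin than in IRI by 1.08 ± 0.199 (adjusted p = 0.000369), with 0.78 to 1.45 and 0.66 to 1.07 against -0.6 to 0.34. Of the 12 receptors, 2 were higher and 6 lower in IRI+Hemin vs IRI, beside 26.1% and 18% of all genes, and without normalization 2 were lower. The largest fall was that of Gpc3, a heparan sulfate proteoglycan of the cell surface, which read 1.16, 1.15, 1.09 and 0.33 in IRI and -0.54, -0.32, -0.44 and -1.13 in IRI+Hemin, a difference of -1.54 ± 0.238 (adjusted p = 8.77e-05). Bcam, another laminin receptor, was lower in IPC+IRI than in IRI by -1.07 ± 0.223 (adjusted p = 0.00105; not called without normalization). Among the enzymes and chaperones that process collagen, 1 of 16 was higher and 4 lower in IRI vs Control, beside 17% and 33.7% of all genes, and 5 of 17 were higher and 0 lower in IRI+Hemin vs IRI, beside 26.1% and 18%. The 4 lower were 2 without Control replicate 3 or 4 or IRI replicate 1 or 2, and the 1 higher was lost without Control replicate 2 or 3 or IRI replicate 1, 3 or 4. Among the receptors, the 1 lower in IRI vs Control was lost without Control replicate 3 or 4 or IRI replicate 1, 2 or 3, and the 3 lower in hemin-treated mice were 1 without IRI+Hemin replicate 2 or Hemin replicate 1 or 2. Serpinh1, the collagen chaperone, was lower in IRI than in Control by -0.74 ± 0.205 (adjusted p = 0.00608) and in IRI+Hemin than in Hemin by -1.14 ± 0.205 (adjusted p = 0.000289), the comparisons in which Col1a1 fell. P4ha2, a collagen prolyl hydroxylase subunit, was higher in IPC+IRI than in IRI by 1.05 ± 0.129 (adjusted p = 1.46e-05). The groups with high P4ha2 were again those not scanned with Control and IRI, and scan day and group cannot be told apart here.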

How the data were processed

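RNA of 20 mouse kidneys was hybridised to 1-colour Agilent 4x44K arrays and read by the authors with Agilent Feature Extraction 9.5.3.1. The deposited scanner files hold the processed signal as an intensity, already background-subtracted, and the deposited matrix holds log2 values that equal log2 of that signal within 0.001 for 100% of the single-spot values compared, with 18.1% of its values blank. From the scanner files, control spots and flagged outlier spots (0.122% to 0.38% per array) were left out, spots of a probe and probes of a gene name were averaged on the linear scale, and log2 of the ratio to the array's 75th percentile was taken. Probe positions are those of the array files (mm9).

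A model with a mean for each group was fitted over all 20 arrays with limma 3.58.1 in R 4.3.3, with Benjamini-Hochberg adjustment over all genes tested in a comparison and a threshold of 0.05. A gene was tested if it was well above background on at least 3 of the 4 arrays of a compared group and lacked at most 1 value. The study's own tests (significance analysis of microarrays with fold cutoffs) were not rerun. The script was tested on simulated data. Groups came from the sample labels. With 4 arrays a group, the number of arrays limits the precision, and the smallest exact permutation p of a single value is 0.029.

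The gene families that make up the members, and the gene lists, were chosen with earlier results of these data known. Named were the 5 largest called rises and falls per comparison with groups that did not overlap, the members in the study's category tables, members fixed by role, and the largest called rise and fall of each other list, from which examples were taken. Alternatives were normexp background correction (offset 50), no or quantile normalization, the deposited matrix, the brightest probe, no filter, the compared arrays alone, a 2-fold minimum, a replicate block and each array left out; those for the other lists were added after seeing the data. Replicate numbers did not pair the arrays: correlations of deviations between arrays of the same number ran from -0.318 to 0.149. Values of 1 named member are not reported here, although it counts among the members.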

Additional observations from a re-analysis of the deposited data

Results flagged for a closer look

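Among 212 sets of 4 arrays, covering 44 members in 5 groups, 18 held an array whose gap to the nearest of the other 3, divided by the range, was above Dixon's critical value. Chance gives about 1 in 20 sets, so these are given as values without an explanation.

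Control replicate 2 stood apart for Itgb8 at -0.53, Itgb5 at 4.36, Lamb1-1 at 2.42 and Col4a3bp at 0.83, and Control replicate 1 for Col2a1 at -1.7. IRI replicate 4 stood apart for Col4a4 at 2.28. IRI+Hemin replicate 2 stood apart for Col18a1 at 4.56, Lama5 at 3.44 and Lamb2 at 1.58, and IRI+Hemin replicate 4 for Col13a1 at -1.91, Col4a3bp at 1.21, Itga2b at -1.98 and Itgb3bp at -1.3. IPC+IRI replicate 1 stood apart for Col13a1 at -4.13. Hemin replicate 2 stood apart for Itga6 at 1.76, Lama4 at -2.75 and Col11a1 at -5.77, and Hemin replicate 1 for Itgb2 at -2.82.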

How the results depend on the processing

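Of 118 member calls followed through the alternatives, 37 were kept under every setting and every left-out array, and 85 under every left-out array. Calls lost or reversed numbered 55 without normalization between arrays, 37 with normexp, 32 in the deposited matrix, 13 with the brightest probe, 13 with the compared arrays alone, 8 with quantile normalization, 6 without the filter and 5 with the replicate block. Where no cause is given, the cause was not tested. The main numerical limits are 4 arrays a group, one slide per group, dim members near background, and the scaling, which moved the median of all genes by up to the 0.057 to 0.622 of Hemin vs Control.

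With a 2-fold minimum, which removes smaller differences by construction, the members higher and lower were 6 and 5 in IRI vs Control, 5 and 6 in IRI+Hemin vs Hemin, 3 and 9 in IPC+IRI vs Control, 5 and 7 in IPC+IRI vs IRI, 3 and 4 in IRI+Hemin vs IRI, and 0 and 1 in Hemin vs Control. Without normalization, 9 were lower in IRI vs Control, 4 higher and 10 lower in IRI+Hemin vs Hemin, 5 lower in IPC+IRI vs Control, 3 lower in IPC+IRI vs IRI, 3 lower in IRI+Hemin vs IRI, and 27 higher and 0 lower in Hemin vs Control. With normexp, 1 was lower in IRI vs Control, 9 higher and 8 lower in IRI+Hemin vs Hemin, 9 higher and 5 lower in IPC+IRI vs Control, 6 higher in IPC+IRI vs IRI, 7 higher in IRI+Hemin vs IRI, and 8 lower in Hemin vs Control. In the deposited matrix, 9 were lower in IRI vs Control, 7 lower in IRI+Hemin vs Hemin, 10 higher in IPC+IRI vs Control, 8 higher in IPC+IRI vs IRI, 5 higher in Hemin vs Control, and 2 higher in the interaction. The interaction gave 2 higher with the brightest probe, 1 lower with quantile normalization, and 1 higher and 1 lower with the compared arrays alone.

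Leaving out each array in turn gave 15 to 18 higher and 13 to 16 lower in IRI vs Control, 10 to 16 and 11 to 19 in IRI+Hemin vs Hemin, 10 to 18 and 13 to 17 in IPC+IRI vs Control, 10 to 17 and 14 to 19 in IPC+IRI vs IRI, 9 to 11 and 10 to 14 in IRI+Hemin vs IRI, 8 to 9 and 7 to 13 in Hemin vs Control, and 0 to 2 and 0 to 1 in the interaction. The lower count in Hemin vs Control was 7 without Control replicate 1 or 3 and 8 without Control replicate 4 or Hemin replicate 1 or 3, and the higher count in IPC+IRI vs Control was 10 without Control replicate 4 or IPC+IRI replicate 4. The interaction gave 1 or 2 calls without Control replicate 1 or 4, IRI replicate 4, or IRI+Hemin replicate 2, 3 or 4.

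Values that changed sign were Itgb3 in IRI+Hemin vs Hemin with the brightest probe (-0.22), Itgav in IPC+IRI vs Control in the deposited matrix (-0.41), Lamb1-1 in IPC+IRI vs Control (0.11) and Col4a3 in Hemin vs Control (0.08) without normalization, and Col11a2 in IRI vs Control (0.00) and Itgam in IPC+IRI vs IRI (-0.08) with normexp. The replicate block moved no count by over 1.5 times, with 16 higher and 14 lower in IRI vs Control and 8 and 11 in Hemin vs Control. A fit with slide as a random block was not run, since each group lay on 1 slide.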
